A study of Homo sapiens with 6 samples.

Results

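FTO and the 8 ALKBH genes make up the human AlkB family examined here. The 9 genes were taken by name from a table of 58174 genes, and all 9 were among the 20493 genes with a mean TPM (transcript abundance corrected for length and scaled to a fixed total per sample) of at least 0.5 in at least 1 group. By the labels, RNA came from AGS cells, a line derived from a human gastric adenocarcinoma. In the group named si-NC, 3 libraries were made from cells given a negative control siRNA, and in the group named si-FTO, 3 libraries from cells given an siRNA against FTO. By genotype, the sample labels call the si-NC libraries wild type and the si-FTO libraries FTO-/-. A genotype differs from an siRNA treatment, and the group means cannot tell which applies. Both groups are AGS of stomach origin by their labels. Each gene has 1 mean per group, so the spread between libraries is unknown, no test was possible, and TPM keeps no record of depth.

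AlkB proteins are dioxygenases that use iron and 2-oxoglutarate to oxidise methyl or other alkyl groups. In many cases, but not all, the oxidised group is then lost from the base or residue that carried it. FTO and ALKBH5 remove the methyl group of N6-methyladenosine (m6A) from RNA, and FTO also acts on m6Am next to the cap of mRNAs. ALKBH2 and ALKBH3 repair alkylated bases in nucleic acids. ALKBH1 and ALKBH8 act on tRNA, ALKBH4 on protein, and ALKBH7 is a mitochondrial protein, whereas ALKBH6 is less well characterised.

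The marker genes of the labelled tissue were examined first, because they bear on every comparison between the groups. Of 23 gastric lineage genes, 15 were under 1 TPM in si-NC, 19 were so in si-FTO, and 7 were listed at 0 in both groups, TFF1, TFF3, GKN1, GKN2, PGC, CDX1 and VIL1. The gastric list summed to 103.8 TPM in si-NC, led by GATA4 at 36.96 TPM, and to 55.5 TPM in si-FTO, led by MUC1 at 31.0 TPM. GATA4, CDX2 and SOX2, transcription factors of the gut, were listed at 0 in si-FTO, whereas FOXA1 had 8.24 and 19.5 TPM and HNF4A 0.0255 and 1.09 TPM. At log2 ratios of 1 or more in size, 6 of the 10 gastric genes compared had the lower mean in si-FTO and 3 the higher. Over all genes compared, 17.0% were lower and 11.4% higher by that measure. Most genes of this list, 14 of 23, were under 1 TPM in both groups.

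The epithelial list of 14 genes summed to 73.8 TPM in si-NC against 5385 TPM in si-FTO. KRT8, a keratin of simple epithelia, had 10.8 TPM in si-NC against 3139 TPM in si-FTO. KRT7 was listed at 0 in si-NC and had 252.8 TPM in si-FTO. EPCAM, a general epithelial marker, had 1.22 TPM in si-NC against 0.113 TPM in si-FTO, and CDH1 had 3.67 and 0.685 TPM. ELF3, an epithelial transcription factor, had 0.115 and 93.3 TPM, and the splicing factor ESRP2 2.44 and 26.0 TPM, whereas the keratin KRT19 was listed at 0 in si-NC and had 0.130 TPM in si-FTO. Of the 11 epithelial genes compared, 8 were higher in si-FTO and 1 lower, counting log2 ratios of 1 or more in size. The shares over all genes were 11.4% higher and 17.0% lower.

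Markers of other lineages differed as well. The 12 kidney lineage genes summed to 546.0 TPM in si-NC against 39.2 TPM in si-FTO, of which IRS4 alone was 426.9 TPM in si-NC and listed at 0 in the other group. SIX2, nearly equal at 37.3 and 36.4 TPM, made up most of the si-FTO sum. Of the 8 kidney genes compared, 7 were lower and 0 higher, beside 17.0% and 11.4% of all genes. PAX8 and CDH16 were listed at 0 in si-NC, UMOD at 0 in both groups, and NPHS1 had 0.0102 and 0.0600 TPM. The 11 neuronal genes summed to 449.0 TPM in si-NC against 17.3 TPM in si-FTO, with UCHL1 the most abundant at 302.9 TPM in si-NC, whereas SNAP25 of the same list had 0.316 and 9.72 TPM and STMN2 was listed at 0 in both groups. Of the 8 neuronal genes compared, 5 were lower and 1 higher, beside the same shares of all genes. The 11 fibroblast and mesenchymal genes summed to 463.5 and 809.2 TPM, led in both groups by VIM. Of the 9 compared, 2 were lower and 3 higher, and VIM, at a log2 ratio of 0.77, was not among them. The 8 immune genes summed to 5.16 and 7.75 TPM, with PTPRC listed at 0 in both groups. These markers do not show the same cells in both groups and leave the labelled identity of the libraries in doubt. The groups thus differed in lineage genes as well as in FTO, and the siRNA, the genotype named in the labels and any difference between the cells themselves cannot be told apart. Every difference given below for the AlkB family is one between the libraries under these labels, and how far the lineage difference takes part in it was not tested.

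**Figure D1:**
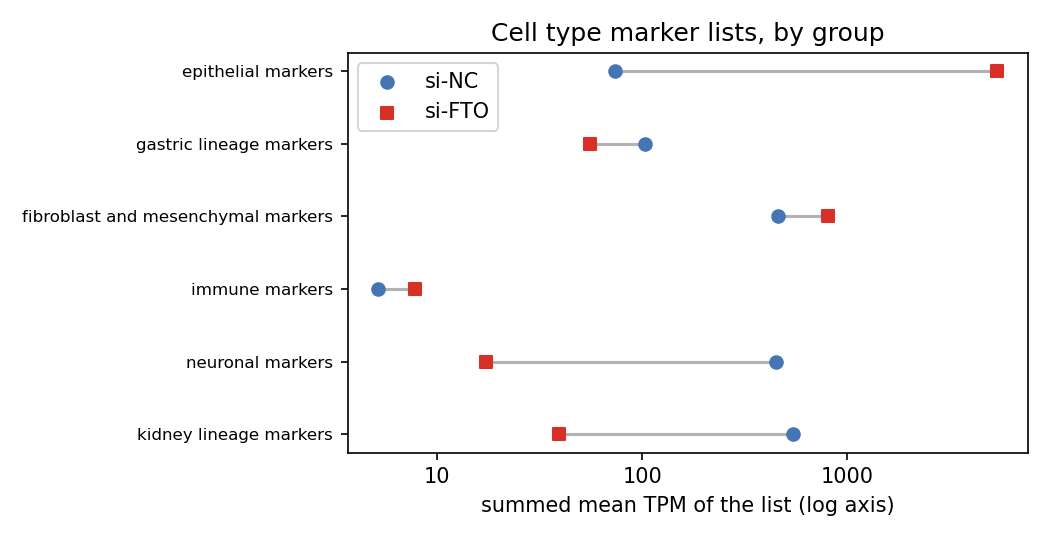
Summed mean TPM of each marker list in si-NC (circles) and si-FTO (squares), on a log axis. Epithelial genes summed to 73.8 TPM in si-NC against 5385 TPM in si-FTO, and kidney lineage genes to 546.0 and 39.2 TPM.

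The first comparison asked how FTO, the gene targeted by the siRNA, and its relatives differed between the groups. FTO was 4.56-fold lower in si-FTO, and ALKBH8, the tRNA enzyme, was lower by about as much, 4.63-fold. ALKBH3, a repair enzyme, was 2.38-fold lower. The other m6A eraser, ALKBH5, was 1.89-fold lower and remained the most abundant member. ALKBH7 alone had the higher mean in si-FTO. These directions held with a smaller pseudocount and under 3 other scalings, and when ratios were centred on the median of all genes.

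FTO (ENSG00000140718) lies on the plus strand of GRCh37 (hg19) at chr16:53735604-54192424. Its mean was 33.1 TPM in si-NC against 7.27 TPM in si-FTO, so that 21.9% of the si-NC level was left. The log2 ratio of the means, taken as si-FTO over si-NC after adding 1 TPM to each, was -2.05. Among all genes compared, 1185 had a lower ratio than FTO, or 5.78%. A decrease of the size seen for the targeted gene was thus not limited to it.

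The stretch of FTO targeted by the siRNA shows what the agent can pair with, and it is shown with the closest coding stretch of ALKBH5 and ALKBH1, which shared the most bases with it, and of ALKBH8 and ALKBH3, which were past the threshold. The target of 25 bases lies at chr16:53859816-53859840 on the plus strand, in exon 3 of 9 of its reference transcript (MANE Select), within the coding sequence. In the first sequence, capitals mark the 7 bases that pair with bases 2 to 8 of the antisense strand, the seed of an siRNA. In the others, capitals mark bases identical to the target at the same place in an alignment without gaps.
FTO: gcagtgtatctgaggagCTCCATAa
ALKBH5: GCAGcGacTaTGAGGAGCagCAgct
ALKBH1: cCtGTGgATtTGAGGAttTCCgagc
ALKBH8: GCtGgGcActTcAGcAGCaCaAgAc
ALKBH3: GCAGgtagTacGtaGAGCTCCtgAg
The ALKBH5 stretch, at chr17:18087760-18087784 on the plus strand in exon 1 of its transcript, shared 16 of 25 bases. The ALKBH1 stretch, at chr14:78142098-78142122 on the minus strand in exon 5, shared 15 bases. The ALKBH8 stretch, at chr11:107393141-107393165 on the minus strand in exon 10, shared 14 bases. The ALKBH3 stretch, which begins in exon 3 and crosses into the next exon, also shared 14. Except for ALKBH1, each was the first of 2 coding stretches with that many identical bases. Over whole mRNAs, the closest stretch of the 8 ALKBH transcripts shared 13 to 16 bases, compared with a median of 15 over 18921 transcripts of other genes. The seed match CTCCATA, sought on the mRNA strand, was present in 0 of the 8 ALKBH transcripts and in 13.02% of the 18921. With so few transcripts, that count is not set apart from the share. Longer transcripts also hold more places for a match. The transcripts of ALKBH5 and ALKBH8, at 3159 and 4067 bases, were longer than the median reference transcript of 2962 bases, and those of the other ALKBH genes were shorter. The 16 bases of ALKBH5 were reached or passed by 17.04% of the 18921. These counts describe letters, and whether the siRNA acts on an ALKBH mRNA was not tested.

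ALKBH5 (ENSG00000091542), the other enzyme that demethylates m6A, lies at chr17:18086392-18113268 on the plus strand. It had 127.6 TPM in si-NC against 67.5 TPM in si-FTO, for a log2 ratio of -0.91. ALKBH5 was thus lower in si-FTO, but short of the log2 ratio of 1 in size that was set as the threshold. The level of ALKBH5 was 3.85 times that of FTO in si-NC and 9.29 times in si-FTO. FTO made up 20.6% of the summed TPM of these 2 erasers in si-NC and 9.72% in si-FTO. The eraser mRNAs shifted towards ALKBH5 although both were lower.

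Among the members that repair alkylated bases, ALKBH2 and ALKBH3 differed in size. ALKBH3 (ENSG00000166199, chr11:43902361-43941824, plus strand), which acts on single-stranded DNA and RNA, had 38.0 TPM in si-NC against 15.98 TPM in si-FTO. Its log2 ratio of -1.20 was past the threshold. ALKBH2 (ENSG00000189046, chr12:109525993-109531436, minus strand), which prefers double-stranded DNA, had 49.2 TPM in si-NC against 33.7 TPM in si-FTO, for a log2 ratio of -0.53. ALKBH2, second in level to ALKBH5 in si-NC, was thus closer between the groups than ALKBH3.

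The tRNA enzymes were also unequal. ALKBH8 (ENSG00000137760, chr11:107373453-107436468, minus strand), which joins a methyltransferase to an AlkB domain and modifies the wobble uridine of tRNAs, had 17.9 TPM in si-NC against 3.86 TPM in si-FTO. That left 21.6% of its si-NC level, with a log2 ratio of -1.96. ALKBH1 (ENSG00000100601, chr14:78138747-78174366, minus strand), which demethylates 1-methyladenosine in tRNA, had 26.6 TPM in si-NC against 15.6 TPM in si-FTO, for a log2 ratio of -0.73. ALKBH8 was the least abundant member in both groups, and by its ratio it stood next to FTO.

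The other members covered the range from just short of the threshold to a higher mean in si-FTO. ALKBH4 (ENSG00000160993, chr7:102096685-102105310, minus strand), which acts on actin, had 24.3 TPM in si-NC against 12.3 TPM in si-FTO, for a log2 ratio of -0.93. ALKBH6 (ENSG00000239382, chr19:36500022-36505141, minus strand) had 25.1 TPM in si-NC against 19.7 TPM in si-FTO, for a log2 ratio of -0.34. ALKBH7 (ENSG00000125652, chr19:6372805-6375261, plus strand), which takes part in programmed necrosis, had 32.3 TPM in si-NC against 38.5 TPM in si-FTO, for a log2 ratio of 0.25. ALKBH6 and ALKBH7, both on chromosome 19, had the ratios nearest to 0 on the deposited scale. With median-ratio scaling, and also when centred on the median of all genes, ALKBH2 was nearer to 0 than ALKBH7.

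**Figure D2:**
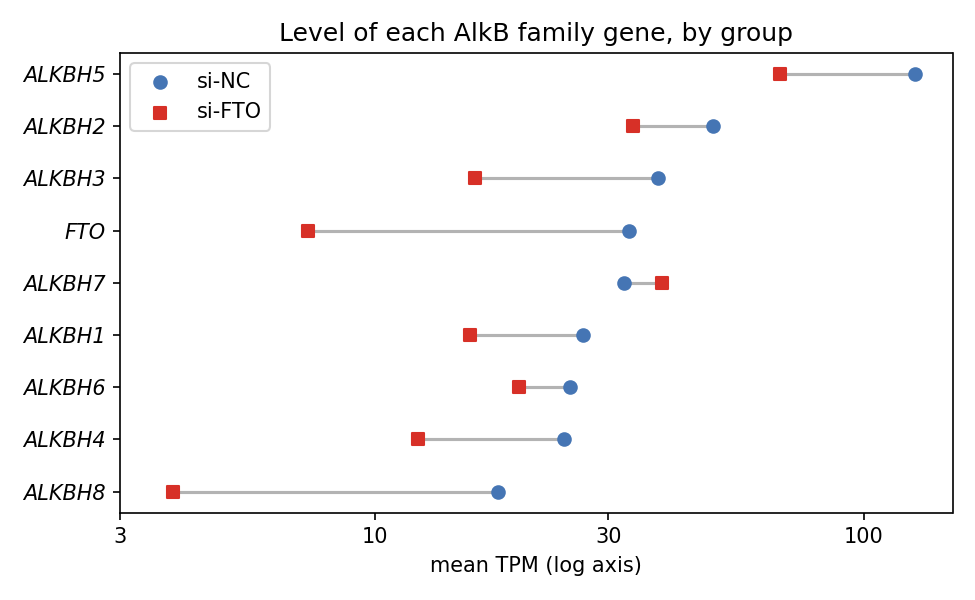
Mean TPM of the 9 family genes in si-NC (circles) and si-FTO (squares) on a log axis, ordered by the si-NC level, with 1 mean per group and no error available. The long lines of FTO (33.1 to 7.27 TPM) and ALKBH8 (17.9 to 3.86 TPM) stand beside the short line of ALKBH7, which alone runs to a higher level in si-FTO, as it did with a smaller pseudocount, under 3 other scalings and when centred on the median of all genes.

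Counted together, 3 of the 9 members (FTO, ALKBH3 and ALKBH8) were past the threshold as lower in si-FTO and 0 as higher. Over all 20493 genes compared, 17.0% were past it as lower and 11.4% as higher. Of the 14176 protein-coding genes among them, 19.1% were lower and 12.0% higher. All 9 members had an average of the 2 group means between 10 and 100 TPM, and in that range, chosen after the values were seen, 13.1% of 8164 genes were lower and 11.9% higher. Centred on the median of all genes compared, a scaling also chosen after the values were seen, 2694 genes were lower and 2952 higher in place of 3492 and 2340, and ALKBH3, at -0.997, no longer passed, which left 2 members. Without FTO, which the siRNA targets, 2 of 8 members were lower, or 25%. With so few members, that share is not set apart from the background. At a fold threshold of 1.5, 6 of the 9 members were lower, against 31.2% of all genes, and the difference was not tested.

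The median log2 ratio of the members was -0.91, and -0.82 without FTO, compared with -0.20 over all genes compared, of which 59.9% were below 0. Relative to that median of all genes, the log2 ratio was -1.84 for FTO, -1.76 for ALKBH8 and 0.45 for ALKBH7. The members' summed level was 374.0 TPM in si-NC against 214.4 TPM in si-FTO, and without FTO 340.8 and 207.2 TPM. The lower sum was therefore mostly that of the ALKBH genes.

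**Figure D3:**
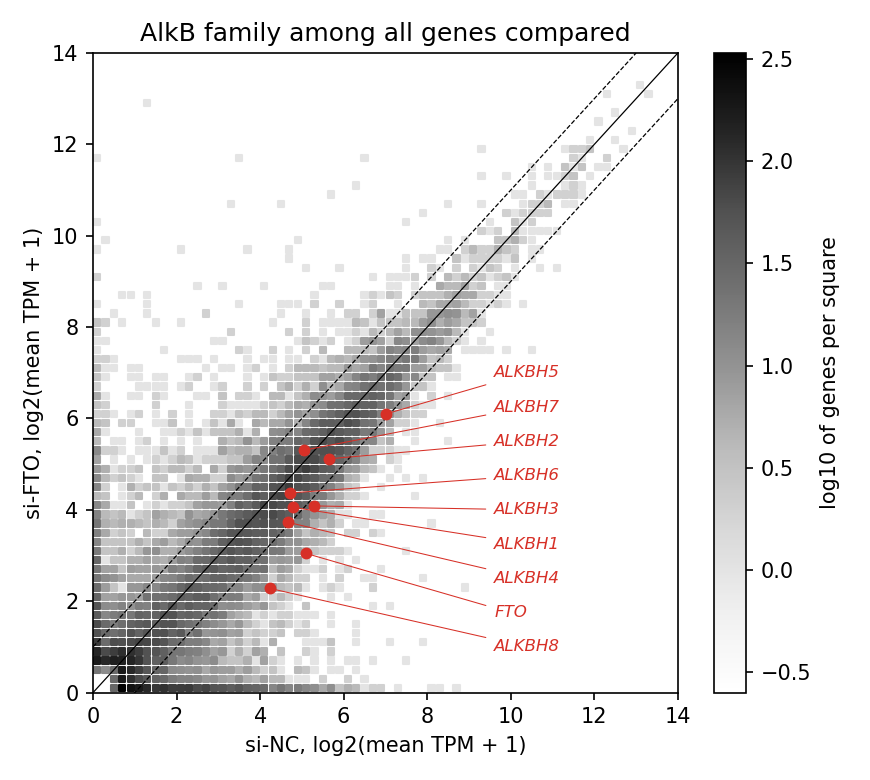
Level in si-FTO against level in si-NC, both as log2(mean TPM + 1), for the genes compared (grey squares, darker for more genes) and the 9 family genes (red), with lines at equal levels (solid) and at a log2 ratio of 1 in size (dashed). FTO, ALKBH8 and ALKBH3 lie beyond the lower dashed line, where 17.0% of all genes lay.

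The order of the levels was then compared within each group. In si-NC the order from highest to lowest was ALKBH5, ALKBH2, ALKBH3, FTO, ALKBH7, ALKBH1, ALKBH6, ALKBH4 and ALKBH8. In si-FTO it was ALKBH5, ALKBH7, ALKBH2, ALKBH6, ALKBH3, ALKBH1, ALKBH4, FTO and ALKBH8. FTO thus went from place 4 to place 8, and ALKBH7 from place 5 to place 2. FTO lay above 76.4% of the genes compared by its level in si-NC and near the middle, at 50.03%, in si-FTO. ALKBH5 lay at 94.3% and 88.0%. Which neighbours in these orders differ beyond the spread of libraries could not be judged from means.

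By the levels in both groups, the protein-coding genes most like FTO were CHN1, ARID3A and MPP2. CHN1 had 33.7 TPM in si-NC against 7.81 TPM in si-FTO, at a distance of 0.0941 from FTO on the log2(TPM + 1) scale of the 2 means. ARID3A lay at a distance of 0.0990 and MPP2 at 0.139. A likeness over 2 means places these genes at similar levels and says no more.

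Members were next compared with the genes around them on the chromosome. For each member, the 25 nearest genes on either side with at least 1 TPM in both groups were taken. Since that filter drops genes lost in a group, the comparison was repeated, after the values were seen, with the nearest genes at 0.5 TPM or more in at least 1 group, the filter used for all genes. The 50 genes around FTO had a median log2 ratio of -0.48, and of -0.50 with the second filter, compared with -0.31 for chromosome 16 with either. With the first filter 0 of 50 were lower than FTO. With the second 4 were, the lowest of them SALL1 at -4.89. FTO thus lay below the median around it with both filters, but not below each neighbour.

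The genes around ALKBH8 had a median of -0.41 with the first filter, by which 1 of 50 was lower than ALKBH8, and of -0.20 with the second, by which 5 were. For chromosome 11 the median was 0.080 with the first filter and 0.025 with the second. ALKBH8 differed from the median around it by -1.55 and -1.76 log2 units, and FTO by -1.57 and -1.54. With the second filter, 14 of the 50 genes around FTO were past the threshold as lower and 7 as higher, and around ALKBH8 10 were lower and 12 higher, beside 17.0% and 11.4% of all genes. With the first filter, 9 were lower and 3 higher around FTO, and 6 were lower and 3 higher around ALKBH8. The stretch around ALKBH8 thus held calls in both directions, and which direction had more depended on the filter.

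ALKBH3, on the other arm of chromosome 11, differed from the median around it by -1.14 log2 units with the first filter and -0.83 with the second, and 4 and 6 of 50 genes were lower than it. For ALKBH5 the difference was -0.77 and -0.85, with 5 of 50 genes lower by either filter. ALKBH1, ALKBH2 and ALKBH4 differed by -0.71, -0.51 and -0.71 with the first filter and by -0.43, -0.48 and -0.48 with the second. With 10 genes on each side and the first filter, the differences for ALKBH1, ALKBH2, ALKBH3 and ALKBH4 were -0.59, -0.35, -1.02 and -0.45, and that for ALKBH7 was 0.64. ALKBH6 differed by -0.03 and 0.10, and ALKBH7 by 0.41 and 0.47. ALKBH6 was thus the nearest to its surroundings with both filters. For the other members the direction of the difference held over these settings, while its size depended on which neighbours were counted.

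**Figure D4:**
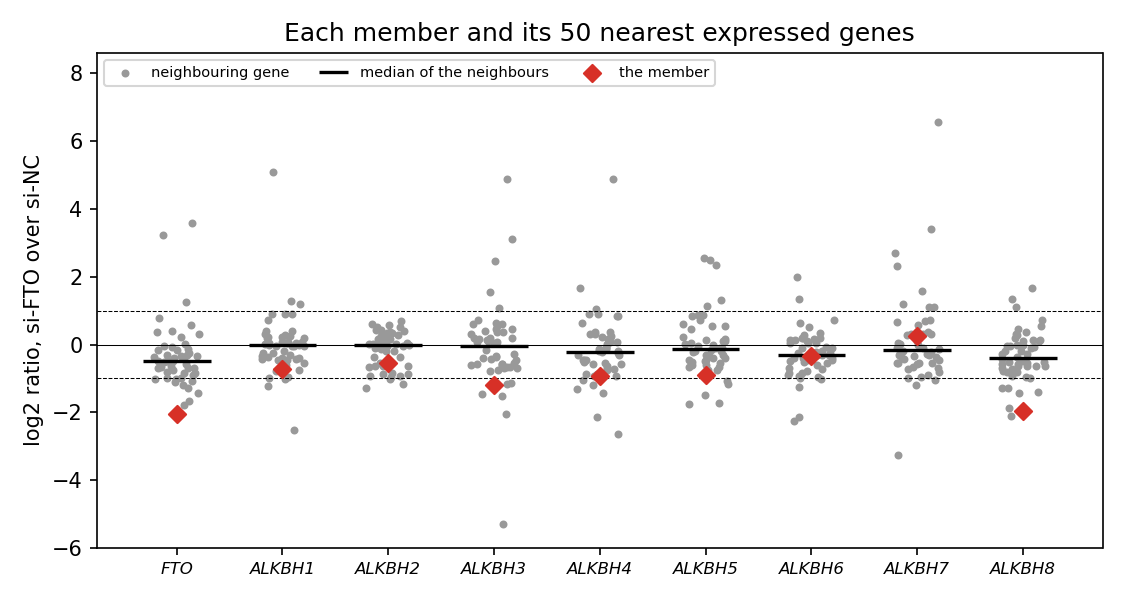
Log2 ratio of each family gene (diamond), of its 50 nearest genes with at least 1 TPM in both groups (grey points) and of their median (bar), with dashed lines at the threshold. Genes lost in a group are not among the points, and with them 4 of 50 genes around FTO and 5 of 50 around ALKBH8 were lower than the member.

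Overlapping genes can share reads with a member where strand is not used in counting. The libraries were made with a stranded kit, but the strand setting of the counting is not given in the sources used here. Of the 9 members, 7 overlap another annotated gene, and ALKBH2 and ALKBH8 do not. Only 3 of the 14 overlapping genes reached 1 TPM in a group. RPGRIP1L, which starts beside FTO on the opposite strand and shares 2247 bases with it, had 10.7 TPM in si-NC against 5.57 TPM in si-FTO. ORAI2, opposite to ALKBH4, had 14.8 and 15.7 TPM, and PSPN, opposite to ALKBH7, had 1.10 and 0.825 TPM. The antisense gene ALKBH3-AS1 had 0.707 TPM in si-NC against 0.168 TPM in si-FTO. The values of FTO, ALKBH4 and ALKBH7 are therefore uncertain to the extent that reads were split, whereas ALKBH8 has no such neighbour.

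Genes that work with the AlkB enzymes were compared next. Of the 9 partner genes, 0 were past the threshold in either direction, with a median log2 ratio of -0.14, beside 17.0% lower, 11.4% higher and a median of -0.20 over all genes. With so few genes, that count is not set apart from the background. The most abundant in si-NC were DDX3X, an RNA helicase that binds ALKBH5, with 198.9 TPM in si-NC against 163.0 TPM in si-FTO, and TRMT112. TRMT112, the subunit that activates the methyltransferase part of ALKBH8, had 134.9 TPM in si-NC against 227.7 TPM in si-FTO, for a log2 ratio of 0.75. Thus TRMT112 had the higher mean in the group in which ALKBH8 had the lower one. ALKBH3 works with the ASCC helicase complex. Of the subunits of that complex, ASCC3 had 32.02 and 32.4 TPM, ASCC2 67.9 and 61.5 TPM, and ASCC1 28.5 and 43.3 TPM. These subunits were named after their values were seen.

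The enzymes that make the modifications removed or built on by the family came next, with their subunits. Of 13 genes for m6A and m6Am methyltransferases and their subunits, 0 were past the threshold, against 17.0% of all genes for lower. Below 0 were 11 of them, against 59.9%, with a median of -0.54. METTL3, the catalytic subunit opposed by FTO and ALKBH5, had 107.4 TPM in si-NC against 81.4 TPM in si-FTO, and WTAP, its adaptor, 105.2 and 65.2 TPM. Of 10 m6A readers, 2 were lower and 0 higher, a share for lower near that of all genes. IGF2BP1 had 99.4 TPM in si-NC against 10.4 TPM in si-FTO, and IGF2BP2 74.99 and 24.4 TPM. The most abundant readers, HNRNPC and HNRNPA2B1, had log2 ratios of -0.63 and -0.11.

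In the tRNA list that surrounds ALKBH1 and ALKBH8, 3 of 13 genes were lower and 0 higher, with a median of -0.62. CTU2, which with CTU1 adds sulfur to the wobble uridine that ALKBH8 also modifies, had 55.7 TPM in si-NC against 15.1 TPM in si-FTO. CTU1 had 12.1 and 4.73 TPM. ELP2, a subunit of the Elongator complex that begins this modification, had 79.9 and 33.9 TPM, and ELP6, another subunit, 79.1 and 71.2 TPM. TRMT9B, a relative of the methyltransferase part of ALKBH8 named after its value was seen, had 1.30 and 0.190 TPM, short of the threshold with a pseudocount of 1, and with 0.1 in its place 4 genes of the list were lower. The share past the threshold as lower, 23.1%, was not far from the 17.0% of all genes. With a fold threshold of 1.5, 7 of the 13 were lower, against 31.2% of all genes. Of the 13, 12 were below 0, against 59.9% of all genes, and these differences were not tested.

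Of 7 genes that repair alkylated bases by routes other than ALKBH2 and ALKBH3, 1 was lower and 1 higher (14.3% each), near the 17.0% and 11.4% of all genes, and the median was -0.25 beside -0.20. MGMT, which takes the methyl group of O6-methylguanine onto itself, was listed at 0 in si-NC and had 25.3 TPM in si-FTO. PARP1, which senses strand breaks, had 702.9 TPM in si-NC against 222.7 TPM in si-FTO. APEX1, an endonuclease that cuts at lost bases, had 85.9 and 110.1 TPM.

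Other oxygenases that use iron and 2-oxoglutarate were compared to see where the family stood among them. Of 54 such genes outside the family, 53 were compared, and 8 were lower (15.1%) and 9 higher (17.0%), with a median of -0.10. The shares over all genes were 17.0% and 11.4%. The family, with 3 lower, 0 higher and a median of -0.91, is too small for its counts to be set apart from these, and the difference was not tested.

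TET1, which oxidises 5-methylcytosine, had 8.80 TPM in si-NC against 0.0257 TPM in si-FTO, while TET3 had 11.5 and 14.7 TPM. Of 27 JmjC genes, 3 were higher (RIOX1, HR and JMJD1C, with log2 ratios of 2.32, 2.004 and 1.36) and 3 lower (KDM7A, RIOX2 and JMJD4, with -1.64, -1.45 and -1.20). Among 8 prolyl and asparaginyl hydroxylases, P4HTM had 0.0913 TPM in si-NC against 34.2 TPM in si-FTO, and EGLN3, a sensor of oxygen, was lower with a log2 ratio of -1.23. OGFOD1 and EGLN2, the most abundant of these hydroxylases in si-NC, had log2 ratios of -0.85 and -0.22. Calls went both ways in the last 2 of these lists, as they did over all genes, whereas the TET list had 1 lower and 0 higher. In each direction 11.1% of the JmjC genes and 12.5% of these hydroxylases were called, beside 17.0% lower and 11.4% higher over all genes. The 3 TET genes are too few to be set apart from that background.

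Of 9 collagen hydroxylases, 3 were higher and 1 lower, with a median of 0.53, beside 11.4% and 17.0% of all genes and a median of -0.20. P3H2 had 2.64 TPM in si-NC against 63.1 TPM in si-FTO, whereas P3H3 had 28.5 TPM in si-NC but was listed at 0 in the other group. PLOD2 and P4HA3 were higher with log2 ratios of 1.07 and 2.10, while the abundant PLOD1 and P3H1 had 0.53 and -0.51. Among the 6 other oxygenases compared, ASPH and ASPHD1 were higher, with 1.57 and 3.05, and PHYHD1 and ASPHD2 lower, with -2.99 and -2.90, and PHYH had -0.01. Called higher were 33.3% of the genes compared in each of these lists, 11.4% of all genes and 0 of 9 AlkB members. The lists are small, and the difference was not tested.

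The supply of 2-oxoglutarate, the cosubstrate of the family, was represented by 15 genes of its metabolism, of which 1 was lower and 1 higher, with a median of -0.32, beside 17.0%, 11.4% and -0.20 over all genes. So few genes are not set apart from that background. OGDH, the subunit of the complex that consumes 2-oxoglutarate, had 58.9 TPM in si-NC against 147.4 TPM in si-FTO, and its relative OGDHL 22.4 and 4.87 TPM. GOT2 and IDH3G, with the highest si-NC levels here, had log2 ratios of -0.90 and -0.60. Of the other isocitrate dehydrogenase genes, whose enzymes make 2-oxoglutarate, IDH1 had the higher mean in si-FTO, at a log2 ratio of 0.49. IDH2, IDH3A and IDH3B had the lower mean, at -0.37, -0.20 and -0.42. These genes were named after their values were seen, and each differed less than FTO did.

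**Figure D5:**
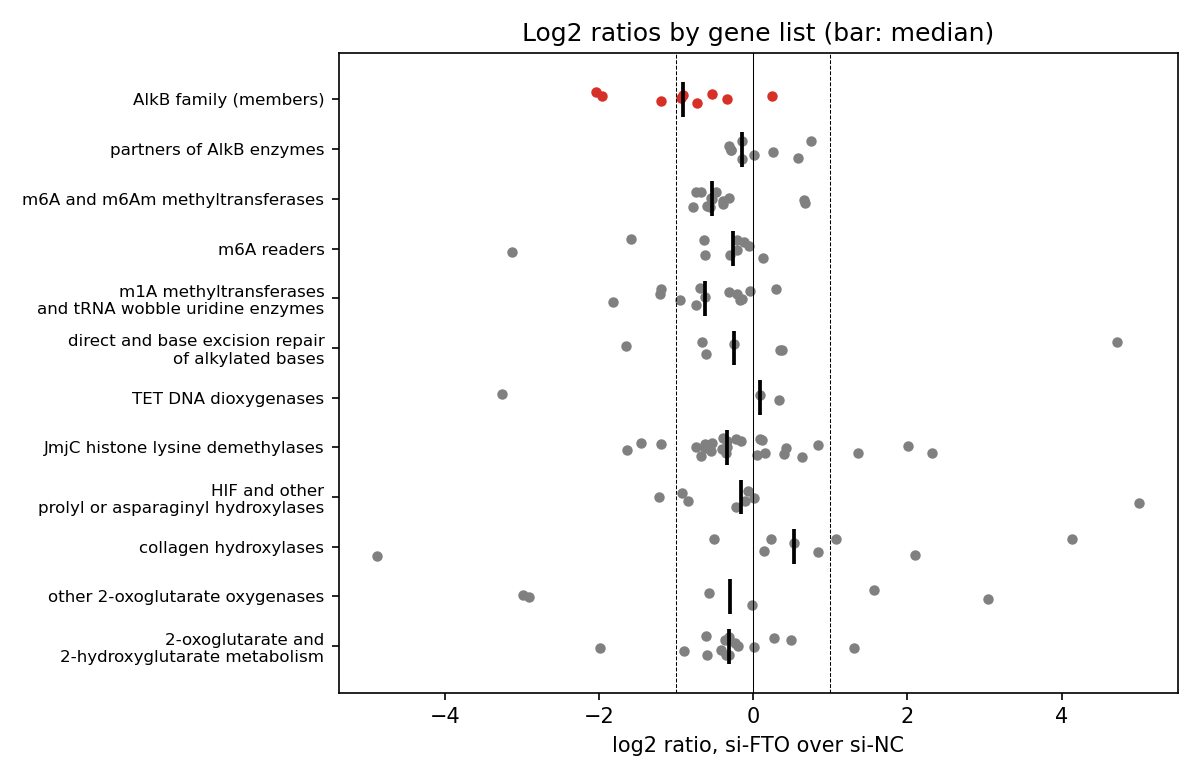
Log2 ratio of each gene compared (points) and list median (bar), for the AlkB family (red) and 11 other lists (grey), with dashed lines at the threshold. The family has a median of -0.91, and the oxygenase lists other than the TET list hold genes past the threshold in both directions.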

How the data were processed

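The authors made stranded libraries from total RNA and, by the study's methods, mapped reads to hg19 with Bowtie and quantified them with RSEM, whereas the submitters' processing notes name HISAT2 with hg19. The deposited values are TPM, as 1 mean per group by the authors over its 3 libraries. The same table holds columns of the authors' own comparison (a log2 fold change, a p-value and a q-value), and a second table holds genes they selected. Neither was used. A TPM of 0.0001 was read as 0. Symbols were found for 55726 of 58174 identifiers. Loci and sequences are those of GRCh37 with the GENCODE annotation lifted to it. A planned limma fit needs values per library and could not be run. Instead, log2 ratios of means were taken with a pseudocount of 1, for genes with at least 0.5 TPM in a group, and a gene was called past a log2 ratio of 1 in size. Depth and error between libraries are unknown. The members and lists were chosen with earlier results of these data known. Named are all members, of each list the genes past the threshold and the 2 highest in si-NC (at most 6), and the 3 genes nearest to FTO. Marker genes were named after their values were seen. The siRNA site was located by matching the sequence in the study's methods to the reference; the comparison of other members with it was added after the data were seen. Sequences of proteins were not used here. Alternatives were other pseudocounts, filters, scalings, fold thresholds, neighbourhood sizes and neighbour filters. Of these, centring on the median of all genes, the range of 10 to 100 TPM, the restriction to protein-coding genes and the second neighbour filter were added after the data were seen. Calculations used Python with numpy and pandas and were tested on simulated data.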

Additional observations from a re-analysis of the deposited data

How the results depend on the processing

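No paired analysis was possible because each group is given as a single mean, and leaving out a library could not be run for the same reason. With no spread known, a result was judged by its sign and by its side of the fold threshold. Of the 7 settings first listed for the members, 3 (the filters and the fold threshold) cannot change a ratio. Under the other 4 all 9 members kept their sign, and FTO (-2.17 to -1.89), ALKBH8 (-2.18 to -1.75) and ALKBH3 (-1.24 to -1.04) stayed past a log2 ratio of -1. Centred on the median of all genes compared, which was chosen after seeing the data and shifts each ratio by 0.20, ALKBH3 (-0.997) fell short, all 9 signs held, and lower calls made up 47.7% of all calls. Median-ratio scaling moved the median of all genes by 0.15 and quantile normalization by 0.17, and the share of lower among all calls went from 59.9% to 52.8% and 50.9%. Under median-ratio scaling the list medians of the AlkB partners (0.027) and of the prolyl and asparaginyl hydroxylases (0.0034) changed sign. The scaling was set by a median log2 ratio of -0.17 over 13781 genes. The median around ALKBH3 changed sign with 50 genes on each side (0.043), and the cause was not tested. With neighbours at 0.5 TPM or more in at least 1 group, chosen after seeing the data, the 9 medians kept their sign. At a fold threshold of 1.5, ALKBH1 (-0.73), ALKBH4 (-0.93), ALKBH5 (-0.91) and the tRNA list median (-0.62) also passed, and 6 members were lower. Over all 20493 genes compared it gave 6397 lower, or 31.2%, and 3855 higher. At this threshold 2 of 9 partners were higher, and of 13 genes for m6A and m6Am methyltransferases and their subunits 4 were lower and 2 higher. Lower were also 4 of 10 readers, 7 of 13 tRNA genes and 3 of 7 repair genes. Of 27 JmjC genes, 7 were lower and 5 higher. Among prolyl and asparaginyl hydroxylases 3 of 8 were lower, and among metabolic genes 4 of 15. None of these shares was tested against that of all genes. With at least 5 TPM in a group 2254 genes were lower, and between 10 and 100 TPM, a range chosen after seeing the data, 1067 were lower and 970 higher, since fewer genes enter. The other 342 values kept their sign and side, or stayed within 1.5 times for counts.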
